A study of Homo sapiens with 6 samples.

Results

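The Rix1 complex is the assembly that PELP1 scaffolds in the nucleolus, and its mRNAs were followed here through 7 genes chosen by name: PELP1, its core partners WDR18 and TEX10, the pre-rRNA processing enzymes LAS1L and NOL9, the SUMO protease SENP3 and the ATPase MDN1. All 7 genes were present among the 23228 genes of the count tables, and all 7 were among the 13408 genes with enough counts to be tested. The question was how the genes of the complex responded at the RNA level when cells were exposed to SMIP34, a small molecule that binds the PELP1 protein.

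RNA was sequenced from HEC-1-A, a human endometrial adenocarcinoma line. The control group had 3 libraries from cells in McCoy's 5A medium with 10% serum. The paper states that controls received vehicle, whereas their labels name only the medium. The SMIP34 group had 3 libraries from cells kept in the same medium with SMIP34 at 20 µM for 24 h. Both groups come from 1 cell line at 1 dose and 1 time. Nothing in the labels says whether the 3 libraries of a group came from separate cultures, so the p-values measure only the spread between these libraries, which may be technical. SMIP34 acts on the PELP1 protein and not on its gene, so the PELP1 mRNA is no check of the labels.

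The 6 libraries held from 19562711 to 22014835 counts each. Control replicate 1 had the lowest total yet the most genes with a count, 16881 against 15965 to 16100 in the other 5 libraries, and the main results are therefore also given without it. All 9 epithelial markers averaged 1 CPM or more (CPM give the counts of a gene relative to the total of its library, here scaled by the TMM method), and KRT18 led them at 851 CPM. Their summed level was 4050 to 4170 CPM in the controls and 3990 to 4020 CPM with SMIP34. Fibroblast markers were nearly absent, with COL1A1 the only 1 of 6 above 1 CPM (3.57 CPM, with the list summing to 3.63 to 4.47 CPM in controls and 4.69 to 5.18 CPM with SMIP34) and LUM at 0. None of the 5 leukocyte or 4 endothelial markers reached 1 CPM, and CD3E was at 0 in all libraries. The leukocyte list summed to 0.096 to 0.18 CPM in controls and 0.28 to 0.50 CPM with SMIP34, and the endothelial list to 0.32 to 0.88 and 0.14 to 0.28 CPM. The part of these traces in the results was not tested.

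Ribosome assembly begins in the nucleolus, where a long precursor RNA is cut and trimmed while ribosomal proteins and transient assembly factors join it. On the way to the large (60S) subunit, the internal transcribed spacer ITS2 has to be removed. LAS1L makes the cut in ITS2 and NOL9 is the RNA kinase that works with it. PELP1, WDR18 and TEX10 are the human counterparts of the yeast Rix1 complex, which sits on the late nucleolar pre-60S particle and recruits MDN1, a giant AAA ATPase that strips assembly factors from it. SENP3 removes SUMO from PELP1 and thereby governs where the complex resides. The set of PELP1, TEX10, WDR18, LAS1L and SENP3 is also known as the 5FMC complex.

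SMIP34 treatment was accompanied by small shifts that did not go the same way across the complex. PELP1, TEX10, SENP3 and MDN1 rose by 11.7 to 17.3%, WDR18 fell by 14%, and LAS1L and NOL9 did not pass the test. In the quasi-likelihood test of edgeR with Benjamini-Hochberg adjustment over all genes, 5 of 7 members passed an adjusted p-value of 0.05, against 34.6% of all genes tested. Of these, 4 were higher (17.4% of all genes) and 1 was lower (17.2% of all genes). No member passed the additional fold limit of 0.5 on the log2 scale, which 3.31% of all genes passed. In 5 of 7 members the CPM of the groups did not overlap, as in 44.5% of all genes. The median log2 fold change was 0.16 over the 7 members and -0.0022 over all genes tested, and the median absolute change of all genes was 0.12. With offsets for exon length, described further on, the median of the members was 0.079 against 0.0037 over all genes, and with length and GC offsets 0.10 against 0.0018. The 5 members that passed had absolute changes of 0.16 to 0.23. All of these shares rest on only 7 genes.

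**Figure D1:**
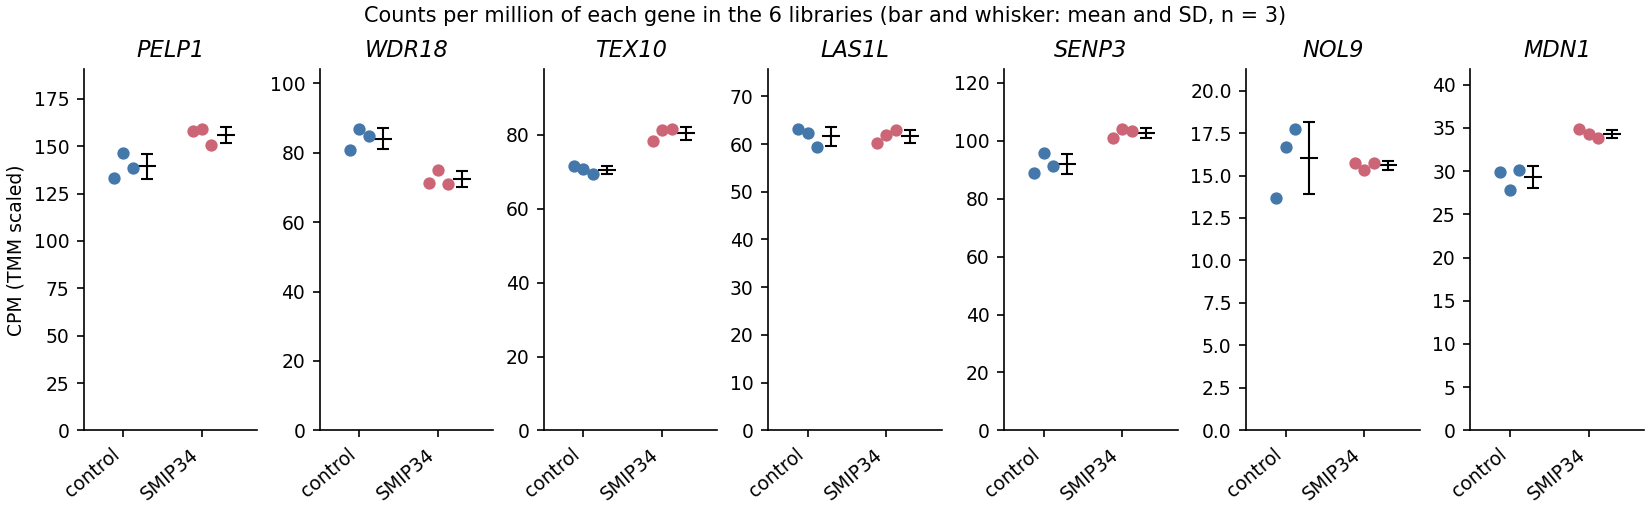
Counts of each gene in CPM (TMM scaled, y axis from 0) for the 7 genes in the 3 control (blue) and 3 SMIP34 (red) libraries, with 1 point per library and the mean and SD (n = 3) beside them. The SMIP34 points of PELP1, TEX10, SENP3 and MDN1 lie above all control points, those of WDR18 lie below (70.9 to 75.0 against 80.8 to 86.7 CPM), and those of LAS1L and NOL9 overlap with the controls.

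PELP1 is the scaffold of the complex and a coregulator of nuclear receptors. Its gene lies on the minus strand of chromosome 17 of hg19, at chr17:4574679-4607632, with 17 annotated exon intervals adding up to 3674 bases. PELP1 stood at 133, 146 and 138 CPM in control replicates 1, 2 and 3 and at 158, 159 and 151 CPM in SMIP34 replicates 1, 2 and 3. All 3 treated libraries lay above the highest control. Control libraries averaged 139 ± 6.5 CPM and treated ones 156 ± 4.43 CPM (mean ± SD, n = 3, as for all means given here). The fitted log2 fold change was 0.16 (standard error 0.035, 95% interval 0.089 to 0.23, adjusted p = 0.000746 by edgeR). PELP1 transcripts were therefore not lower in the cells that received the compound.

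WDR18, a WD-repeat protein that binds PELP1 directly, was the single member that fell. The gene lies on the plus strand of chromosome 19, at chr19:984328-994569, with 10 exon intervals and 1551 exonic bases, the shortest of the members. It was measured at 80.8, 86.7 and 84.7 CPM in the controls and at 71.2, 75.0 and 70.9 CPM with SMIP34. The lowest control exceeded the highest treated library. The means were 84.1 ± 2.99 and 72.4 ± 2.27 CPM, and the fitted log2 fold change was -0.22 (standard error 0.039, 95% interval -0.30 to -0.14, adjusted p = 0.000104 by edgeR).

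TEX10, the other core partner, moved in the opposite direction to WDR18. Located at chr9:103064357-103115259 on the minus strand, it has 16 exon intervals and 3274 exonic bases. The controls gave 71.5, 70.7 and 69.4 CPM and the treated libraries 78.3, 81.4 and 81.5 CPM. The groups were apart, and TEX10 had a smaller spread within the controls than PELP1 or WDR18 (SD 1.09 CPM). The log2 fold change was 0.19 (standard error 0.038, adjusted p = 0.000326 by edgeR).

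Start regions are shown for TEX10 and MDN1, which carry an E-box, and for WDR18, which has none in its window. The E-box is the letters CACGTG, which basic helix-loop-helix factors bind. The windows of LAS1L, SENP3 and NOL9 hold no E-box either and are not shown. Each window holds 250 bases of hg19, from 230 bases before the annotated transcript start to the first 20 bases of the transcript, read 5' to 3' on the strand of the gene. Capitals mark every match, on either strand, to the E-box, to the ETS-type letters CCGGAA or to the GC box GGGCGG. The windows are chr9:103115240-103115489 on the minus strand for TEX10, chr6:90529423-90529672 on the minus strand for MDN1 and chr19:984098-984347 on the plus strand for WDR18.
TEX10 start window: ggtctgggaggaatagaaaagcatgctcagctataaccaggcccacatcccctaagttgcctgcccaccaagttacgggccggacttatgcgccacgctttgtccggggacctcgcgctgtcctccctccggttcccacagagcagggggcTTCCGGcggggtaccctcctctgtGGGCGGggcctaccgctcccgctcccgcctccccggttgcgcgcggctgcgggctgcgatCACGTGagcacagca
MDN1 start window: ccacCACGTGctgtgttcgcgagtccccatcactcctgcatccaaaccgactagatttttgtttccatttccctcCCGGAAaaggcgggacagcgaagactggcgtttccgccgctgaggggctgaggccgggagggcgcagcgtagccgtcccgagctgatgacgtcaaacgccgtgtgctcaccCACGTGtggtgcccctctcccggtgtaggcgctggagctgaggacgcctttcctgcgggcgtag
WDR18 start window: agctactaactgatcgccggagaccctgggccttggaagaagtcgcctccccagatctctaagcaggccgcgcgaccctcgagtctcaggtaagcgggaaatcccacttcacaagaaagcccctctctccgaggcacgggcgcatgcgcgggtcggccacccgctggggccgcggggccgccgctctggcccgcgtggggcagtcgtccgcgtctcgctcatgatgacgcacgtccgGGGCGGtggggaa

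Among the 6 members other than PELP1, the E-box was found in 2 start windows, once in TEX10 and 2 times in MDN1, and in 8.16% of the 13249 windows of tested genes. Both of these genes were among the members that rose, although MDN1 was not called with length offsets (log2 fold change 0.079). SENP3 rose without an E-box in its window. The ETS-type letters were present in 4 of 6 members (TEX10, LAS1L, NOL9 and MDN1) and in 23.8% of windows. LAS1L and NOL9, the enzyme pair, each held 2 ETS matches and no E-box or GC box. The GC box was found in 3 of 6 members (WDR18, TEX10 and SENP3) and in 64.2% of windows, and the letters AAGATGGC of a YY1 site in none of the 6 and in 2.5% of windows. The GC share of the windows ranged from 56.8% in NOL9 to 77.2% in SENP3. Such matches describe letters in a window, and binding was not measured. Whether any match goes with a rise or a fall was not tested.

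LAS1L, the endonuclease of ITS2, differed from the core members in that no change was detected. It lies on the minus strand of the X chromosome at chrX:64732462-64754686, with 14 exon intervals and 2489 exonic bases. The controls stood at 63.0, 62.4 and 59.4 CPM and the treated libraries at 60.2, 61.9 and 62.9 CPM. The groups overlapped fully, with means of 61.6 ± 1.93 and 61.7 ± 1.35 CPM. The log2 fold change was 0.0013 (standard error 0.042, adjusted p = 0.983 by edgeR), and its 95% interval of -0.084 to 0.087 excludes changes as large as those fitted for the 5 members that passed.

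NOL9, the RNA kinase that acts beside LAS1L, was the weakest of the members in counts, with 265 to 368 reads per library. The gene is at chr1:6581407-6614658 on the minus strand, with 12 exon intervals and 6712 exonic bases. Control values of 13.7, 16.7 and 17.7 CPM enclosed the treated values of 15.7, 15.3 and 15.8 CPM. The control spread came mainly from replicate 1, the lowest of the 6. The log2 fold change was -0.043 (standard error 0.085, adjusted p = 0.735 by edgeR). With a 95% interval from -0.22 to 0.13, a change of NOL9 as large as that of PELP1 or TEX10 upwards lies outside the interval, whereas a fall as large as that of WDR18 was at its edge. Counting error alone came to 6.1% for the lowest NOL9 count, against 2 to 4.1% for the other members.

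SENP3, the nucleolar SUMO2/3 protease that acts on PELP1, rose together with it. At chr17:7465309-7475287 on the plus strand, it has 11 exon intervals and 2495 exonic bases. The controls gave 88.8, 95.6 and 91.3 CPM and the treated libraries 101, 104 and 103 CPM. All treated libraries exceeded all controls, and the log2 fold change was 0.16 (standard error 0.036, adjusted p = 0.00118 by edgeR). All 11 SENP3 exon intervals also belong to the annotated read-through gene SENP3-EIF4A1, whose count was 99.5 to 99.7% of the sum of SENP3 and EIF4A1 in every library. Reads on SENP3 were therefore counted in both rows, and SENP3 reads from read-through transcripts cannot be told apart from its own. EIF4A1, the translation initiation helicase downstream, had a log2 fold change of -0.046 (adjusted p = 0.174 by edgeR) and the read-through row one of -0.022 (adjusted p = 0.552).

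MDN1, the AAA ATPase, had the largest fitted increase of the 7, but it did not hold under every adjustment. The gene spans chr6:90353231-90529442 on the minus strand, with 102 exon intervals and 17400 exonic bases, a length reached by only 56 of the genes tested. Counts of 29.9, 27.9 and 30.1 CPM in the controls stood against 34.8, 34.3 and 33.9 CPM with SMIP34. The groups did not overlap, and the log2 fold change was 0.23 (standard error 0.054, 95% interval 0.12 to 0.34, adjusted p = 0.00165 by edgeR). When the libraries were additionally adjusted for a dependence of counts on exon length, the log2 fold change of MDN1 dropped to 0.079 (adjusted p = 0.278 by edgeR), and with length and GC content together it was 0.10 (adjusted p = 0.151). Over all 20 alternatives its adjusted p ranged from 0.000758 to 0.278.

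That dependence on length was visible over all genes, since the median log2 fold change was 0.12 in the longest of 10 equal length classes of the genes tested and -0.10 in the shortest. MDN1 is in the longest class, and its 0.23 stands beside the median of 0.12 there. WDR18 belongs to the second shortest class, with a median of -0.073, and among 10 classes of GC content to the highest, with a median of -0.052. Its exons are 65.5% GC, against a median of 49.5% for the genes tested. With length offsets WDR18 had a log2 fold change of -0.15 (adjusted p = 0.00213 by edgeR) and with length and GC offsets of -0.14 (adjusted p = 0.00305), so the fall was smaller but was still called. Over the 20 alternatives its adjusted p lay between 2.55e-05 and 0.00305. PELP1, TEX10 and SENP3 kept log2 fold changes of 0.15, 0.185 and 0.19 with length offsets, and each was called. Whether the dependence on length arises in the cells or in library preparation was not tested.

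**Figure D2:**
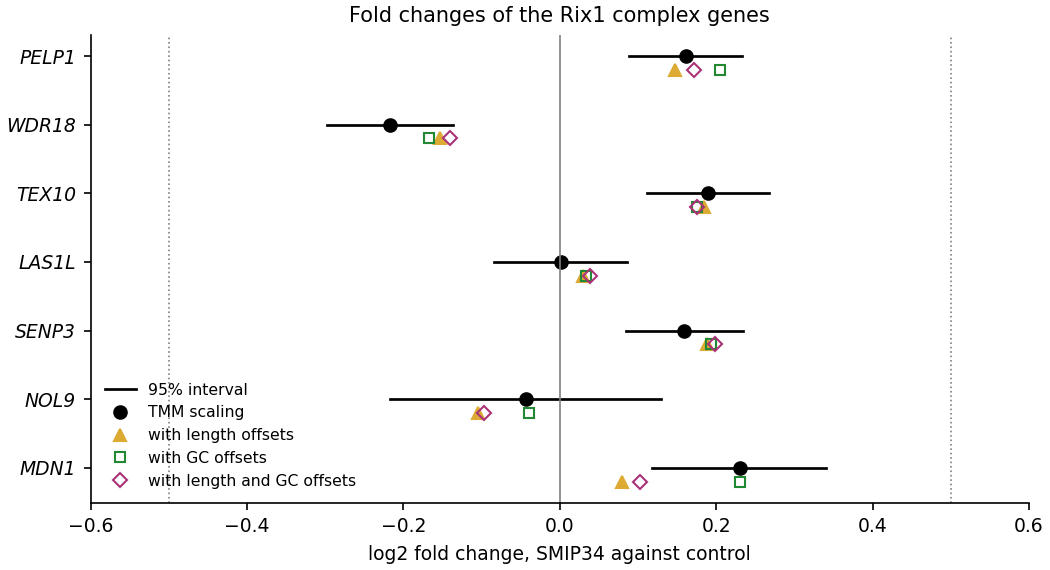
Log2 fold change of SMIP34 against control for each gene (x axis), with black points and lines for the TMM fit and its 95% interval, and coloured symbols for fits with offsets for exon length, GC content or both; dotted lines mark the fold limit of 0.5. MDN1 moves from 0.23 to 0.079 with length offsets, WDR18 stays below 0 in every fit, and the intervals of LAS1L and NOL9 contain 0.

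Without control replicate 1, the log2 fold changes were 0.13 for PELP1, -0.24 for WDR18, 0.20 for TEX10, 0.14 for SENP3 and 0.25 for MDN1, and the same 5 members passed the adjusted p-value. The values of LAS1L and NOL9 were then 0.019 and -0.14 and again did not pass.

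Levels of the members were compared per kilobase of exon, because longer transcripts collect more reads. In control cells WDR18 stood highest at 54.2 ± 1.9 CPM per kb, followed by PELP1 at 37.9 ± 1.8 and SENP3 at 36.8 ± 1.4 CPM per kb. LAS1L had 24.8 ± 0.77 and TEX10 21.5 ± 0.33 CPM per kb. NOL9 and MDN1 were far lower, at 2.39 ± 0.31 and 1.68 ± 0.072 CPM per kb, below the median gene tested at 9.62 CPM per kb. The ranges of PELP1 and SENP3 overlapped, and all other neighbours in this order were apart.

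With SMIP34 the order was the same but its upper part was closer together. WDR18 was at 46.7 ± 1.5, PELP1 at 42.4 ± 1.2 and SENP3 at 41.2 ± 0.63 CPM per kb, and PELP1 went from 70% to 90.9% of the WDR18 level. LAS1L at 24.8 ± 0.54 and TEX10 at 24.6 ± 0.56 CPM per kb then overlapped. MDN1 reached 1.97 ± 0.027 CPM per kb and remained the lowest, under NOL9 at 2.32 ± 0.038. Levels per length assume that the annotated exons are the ones used, and they say nothing of protein amounts.

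The balance within the complex was examined as ratios inside each library, which do not depend on how libraries are scaled. Per length, WDR18 was present at 1.43, 1.40 and 1.45 times the PELP1 level in the 3 controls and at 1.07, 1.12 and 1.11 times with SMIP34. The groups were widely separated, and the log2 ratio differed by -0.38. The ratio of LAS1L to PELP1 differed by -0.16 on the log2 scale, with ratios of 0.629 to 0.698 in the controls and of 0.562 to 0.615 with SMIP34. LAS1L itself had a log2 fold change of 0.0013 and PELP1 one of 0.16. The lower ratio thus restates the rise of PELP1 and is no separate result for LAS1L.

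SENP3 kept step with PELP1 on average, with a wider spread in the treated libraries (SD of the log2 ratio 0.051 against 0.013 in the controls). Its ratio per length was 0.98, 0.962 and 0.972 in the controls and 0.94, 0.964 and 1.01 with SMIP34, a log2 difference of -0.0017. The log2 differences to PELP1 were 0.026 for TEX10, 0.067 for MDN1 and -0.19 for NOL9, and each of the 3 overlapped between groups. Against WDR18, TEX10 gained 0.40, SENP3 0.38, MDN1 0.45 and LAS1L 0.22 on the log2 scale, and none of these 4 ratios overlapped between the groups. All 4 contain the fall of WDR18 itself and are not separate results, since LAS1L alone had a log2 fold change of 0.0013. How many of all genes would likewise separate from WDR18 or from PELP1 was not computed. In the exact two-sided permutation test each ratio without overlap had p = 0.1, the smallest value that 3 against 3 libraries allow, and p = 0.183 after Benjamini-Hochberg adjustment over the 11 pairs compared. These ratios are therefore given as descriptions. Genes of different length respond differently to the length offsets, with which the difference of the fitted fold changes was -0.30 for WDR18 to PELP1, -0.12 for LAS1L to PELP1 and 0.23 for MDN1 to WDR18, and that of MDN1 to PELP1 turned from 0.069 to -0.068.

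**Figure D3:**
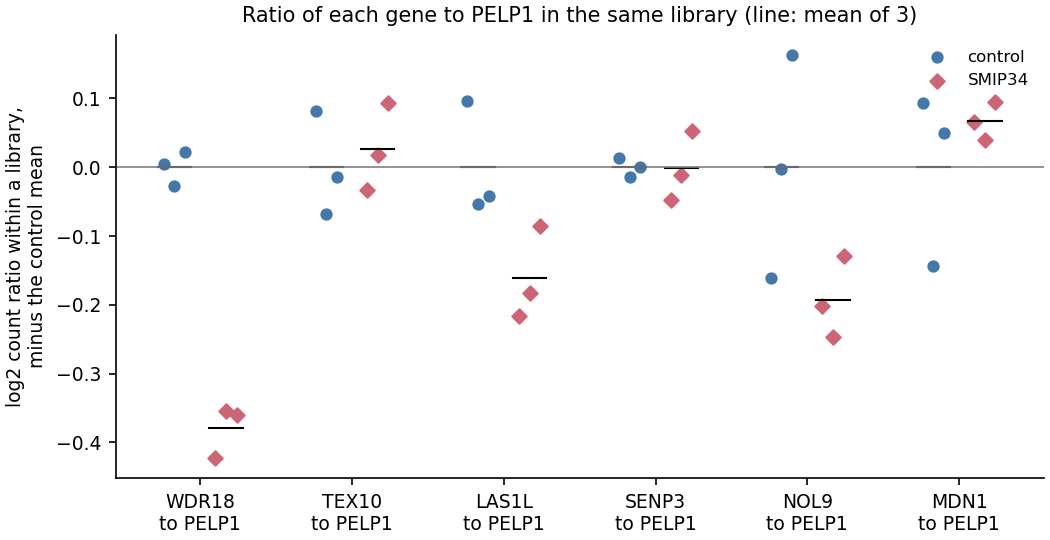
Log2 ratio of the counts of each gene to those of PELP1 in the same library (y axis), set to 0 at the mean of the controls, with 1 point per library (blue circles control, red diamonds SMIP34) and a line at the mean of 3. The WDR18 ratio is lower by 0.38 and the LAS1L ratio by 0.16 in SMIP34 libraries without overlap, whereas SENP3 and TEX10 stay around 0. All ratios contain the rise of PELP1 itself (log2 fold change 0.16), and LAS1L alone had 0.0013. The share of all genes whose ratio to PELP1 separates was not computed.

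The profile of PELP1 over the 6 libraries was compared with those of the 9909 genes averaging 10 CPM or more, by the root mean square difference of log2 CPM centred per gene. RBM26, an RNA-binding protein gene, and SLC15A4, a lysosomal peptide and histidine transporter gene, were the closest, each at 0.016, followed by the transcription factor gene ZBTB7A at 0.018. Their log2 fold changes were 0.15, 0.16 and 0.14. Among the members, SENP3 ranked 28 of 9909, TEX10 777, MDN1 2411, LAS1L 4112, NOL9 6674 and WDR18 8851. The small changes of PELP1 are shared by many genes, and a likeness over 6 libraries is a description only.

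Genes within 5000 bases of a member were listed to see whether the shifts extended to neighbours. INVS, 931 bases from TEX10 on the opposite strand, had a log2 fold change of -0.029 (adjusted p = 0.701 by edgeR), while TEX10 rose. TNFSF13, a TNF family ligand gene 384 bases from SENP3 on the same strand, fell from 22.6 ± 1.17 to 18.4 ± 1.56 CPM (log2 fold change -0.30, adjusted p = 0.00214 by edgeR). Its read-through row TNFSF12-TNFSF13 shares reads with it and had -0.31 (adjusted p = 0.00363). LYRM2, 4757 bases from MDN1 on the same strand, fell by 0.20 on the log2 scale (adjusted p = 0.00107 by edgeR). PLEKHG5 next to NOL9 had -0.051 (adjusted p = 0.755). TEX10, SENP3 and MDN1, which rose, thus lay beside genes that fell or were not called, and PELP1 and WDR18 had no neighbour in this range. ZC3H12B, TNFSF12, TAS1R1 and the small nucleolar RNA genes SNORA48 and SNORD10 near members had under 1 CPM in both groups and were not tested.

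The wider pathway was described with 6 lists of 144 tested genes, namely factors of early pre-60S assembly, of late pre-60S maturation and export, of ITS2 processing and the exosome, of the small subunit, of the SUMO pathway and of 5FMC partners. Over all lists 33 genes were higher and 10 lower at the adjusted p-value (29.9%, against 34.6% of all genes), and the median log2 fold change was 0.049. Calls leaned upwards, with 76.7% of them higher against 50.4% over all genes. The split depended on scaling. With library size only, 42 were higher and 6 lower (58.6% of the calls over all genes then being higher), and with upper quartile scaling 29 were higher and 11 lower (44.7% over all genes). Length offsets gave 48 and 2 (52.7% over all genes), and length and GC offsets 46 and 3 (52.4%). Over all 13408 genes tested, 2232 were higher and 2001 lower with length offsets. The counts of each list below are to be read beside these numbers over all genes. No listed gene passed the fold limit except WDR46.

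Early pre-60S assembly factors act before the Rix1 complex joins. Of 33 tested, 6 were higher and 1 was lower, with a median log2 fold change of 0.042. DDX24, a DEAD-box helicase, rose most, from 167 ± 1.76 to 204 ± 1.22 CPM (log2 fold change 0.29, adjusted p = 1.24e-08 by edgeR), and its 3 treated libraries at 205, 205 and 203 CPM lay far above the controls at 165, 167 and 168 CPM. This exceeds the change of every member. DDX56, another helicase, had the largest decrease among called genes at -0.10 (adjusted p = 0.0444), while BOP1, named after its values were seen, had -0.23 and did not pass (adjusted p = 0.104). NSA2, the assembly factor with the highest level per length, had -0.053 (adjusted p = 0.308). With length offsets, and also with library size only, 10 genes of the list were higher and 0 lower, and with length offsets DDX56 had -0.073 (adjusted p = 0.135).

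Late pre-60S factors act on the particle around and after the step of MDN1, up to its export from the nucleus. Among 22 genes, 7 were higher and 3 lower, and the median was 0.011. The AAA ATPase gene SPATA5 rose by 0.34 on the log2 scale (12.8 ± 1.65 to 16.2 ± 1.17 CPM, adjusted p = 0.00404 by edgeR). NLE1, the human form of a yeast substrate of MDN1, had the largest decrease, at -0.15 (adjusted p = 0.0463). Its controls at 46.8, 47.8 and 47.2 CPM overlapped with treated values of 43.0, 47.2 and 38.1 CPM. GLTSCR2, which carries the exosome cofactor to the pre-60S particle and had the highest level per length, fell by 0.10 (adjusted p = 0.00638). With length offsets, 8 late factors were higher and 0 lower, and NLE1 and GLTSCR2 had adjusted p-values of 0.0649 and 0.27.

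After LAS1L and NOL9 open ITS2, the nuclear exosome and exonucleases trim the ends. In that list of 17 genes, 2 were higher and 1 was lower, with a median of 0.072. DIS3, a catalytic exosome subunit, rose from 61.6 ± 1.27 to 72.2 ± 1.23 CPM (log2 fold change 0.23, adjusted p = 5.32e-05 by edgeR), with no overlap between the groups. EXOSC5, a subunit of the exosome ring, showed both the largest decrease and the highest level per length, with a log2 fold change of -0.16 (adjusted p = 0.00381). With length offsets the list had 7 genes higher and 0 lower, and the log2 fold change of EXOSC5 was -0.071 (adjusted p = 0.148).

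The small subunit list covers the other arm of ribosome assembly. Of its 49 genes, 14 were higher and 2 lower, and the median was 0.058. Its largest increase was that of WDR46, from 4.02 ± 0.557 to 7 ± 1.36 CPM (log2 fold change 0.80, adjusted p = 0.000146 by edgeR), which was the only listed gene past the fold limit. WDR46 is annotated on 5 chromosome names of hg19, including alternative haplotypes, so its count is uncertain. NOB1, the endonuclease that finishes 18S rRNA, fell from 114 ± 2.74 to 96.1 ± 2.76 CPM (log2 fold change -0.25, adjusted p = 3.39e-06), and FBL, the fibrillarin gene with the highest level per length, had 0.018 (adjusted p = 0.665). With length offsets FBL had 0.096 (adjusted p = 0.00223). The medians of the pre-60S and ITS2 lists, 0.011 to 0.072, lie on both sides of the small subunit median of 0.058. The difference between the lists was not tested.

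Genes around SENP3 in the SUMO pathway included 3 that were higher and 1 that was lower among 17, with a median of 0.054. SENP5, the closest nucleolar relative of SENP3, rose from 34.6 ± 2.07 to 41.8 ± 1.15 CPM (log2 fold change 0.275, adjusted p = 0.000186 by edgeR). Both nucleolar SUMO proteases were therefore higher, but a rise was not particular to them. Their relative SENP2 went from 57.3 to 63.5 CPM (log2 fold change 0.15, adjusted p = 0.00861 by edgeR), while SENP1, SENP6 and SENP7 were not called. SUMO3, a modifier that SENP3 and SENP5 remove, fell from 219 ± 3.07 to 186 ± 3.07 CPM (log2 fold change -0.24, adjusted p = 3.72e-07). Its treated libraries at 182, 186 and 188 CPM were all below the controls at 222, 220 and 216 CPM. SUMO2, the modifier with the highest level per length, stood at 360 ± 13.7 and 354 ± 9.91 CPM (log2 fold change -0.025, adjusted p = 0.558). The list had 6 genes higher and 1 lower with length offsets, and 5 and 1 with library size only.

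Partners reported for the 5FMC complex link it to the arginine methyltransferases and to the zinc finger factor ZNF148. Of 6 genes, 1 was higher and 2 were lower, with a median of -0.0072. ZNF148 had a log2 fold change of 0.11 (adjusted p = 0.0363 by edgeR) and PRMT1 one of -0.11 (adjusted p = 0.0068). With length offsets 0 of the 6 genes passed, and ZNF148 was at 0.0027. ERH, with the highest level per length, had -0.055 (adjusted p = 0.26).

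**Figure D4:**
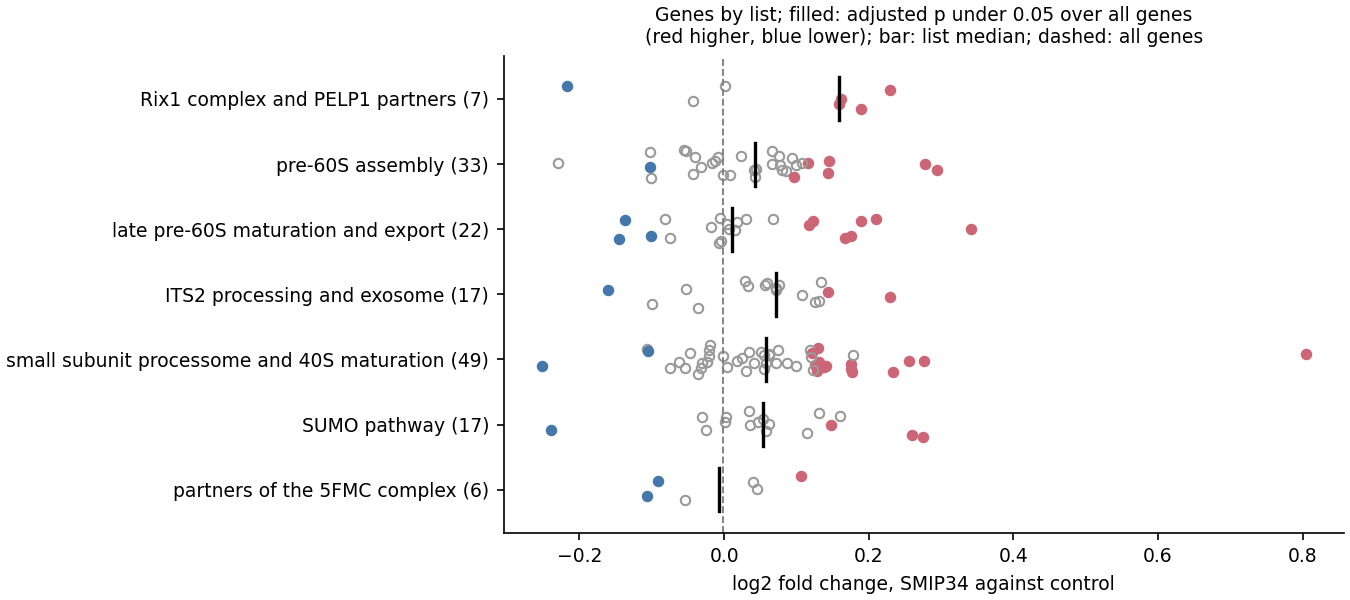
Log2 fold change of SMIP34 against control (x axis) of every tested gene of the 7-gene set and of 6 lists (rows, with the number of genes), filled red where higher and blue where lower at an adjusted p under 0.05 over all genes and open otherwise; bars mark list medians and the dashed line the median of all genes. List medians lie between -0.0072 and 0.072, the median of the 7 genes is 0.16, and WDR46 stands apart at 0.80; with length offsets, not drawn, the median of the 7 genes is 0.079, within the list medians of 0.026 to 0.094.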

How the data were processed

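RNA-seq was performed on 6 libraries of HEC-1-A cells. Stranded mRNA kits of 2 makers appear in the labels, with no word on which library used which. The authors deposited 1 table of estimated counts per library, with 23228 genes. Per the file headers, featureCounts 1.5.0-p1 summed reads over exons of the UCSC hg19 annotation by strand, above a minimum mapping quality of 2, and divided multi-mapping reads into fractions. The submitters' processing notes name bcl2fastq, HISAT2 and SAMtools, whereas the methods of the paper name tophat2 and HTSeq. No normalization had been applied.

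Samples were grouped by their labels, and none was left out. Deposited counts were rounded to whole numbers, filtered with filterByExpr (13408 genes left), scaled by TMM (factors 0.988 to 1.01) and tested by quasi-likelihood in edgeR (version 4.0.16, under R 4.3.3), and p-values were adjusted by the Benjamini-Hochberg procedure. Calls needed an adjusted p under 0.05, and the fold limit was 0.5 on the log2 scale. Centred log2 CPM used a prior count of 2. Length and GC offsets came from loess fits with a span of 0.3. GC content and start windows were read from a genome sequence of the hg19 build, on which exon lengths equalled the deposited ones for 98.7% of genes. The start window of 1 member is not reported here. Scripts were tested on simulated data.

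The members, lists and tests were chosen with earlier results of these data known. Named genes are the 7 members, their neighbours within 5000 bases, the called extremes (mean of at least 1 CPM) and the highest level per length of each list, and the 3 profiles closest to PELP1. BOP1, SENP1, SENP2, SENP6 and SENP7 were named after their values were seen. Alternatives were limma 3.58.1, DESeq2 1.42.0, the legacy method of edgeR, other scalings, filters and rounding, a replicate block and leaving out each library. GC offsets, length and GC offsets together, and leaving out read-through genes were added after the data were seen.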

Additional observations from a re-analysis of the deposited data

How the results depend on the processing

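Each member was fitted under 20 alternatives. PELP1, WDR18, TEX10 and SENP3 kept their direction and an adjusted p under 0.05 in all 20, with log2 fold changes between 0.13 and 0.205 for PELP1, -0.24 and -0.14 for WDR18, 0.175 and 0.21 for TEX10, and 0.14 and 0.20 for SENP3. MDN1 passed in 18, and not with length offsets (0.079) or with length and GC offsets (0.10). That its value follows the offsets is by construction of the fit, and the cause of the dependence on length was not tested. LAS1L and NOL9 passed in none, with log2 fold changes of -0.022 to 0.038 and of -0.14 to 0.034. Of all genes, 444 passed both thresholds in the main test, 295 with the DESeq2 Wald test and 136 among genes averaging 10 CPM or more, where fewer genes were tested. The ratios to PELP1 were recomputed with counts rounded down and without each library in turn, which gave 42 values. Leaving out 1 of 3 libraries always moves a group mean by less than its SD, so small shifts are no test. The log2 differences of WDR18 (-0.39 to -0.36), LAS1L and NOL9 stayed below 0. Without control replicate 2, that of TEX10 went from 0.026 to -0.0081 and that of MDN1 from 0.067 to -0.0048. That of SENP3 lay between -0.029 and 0.021. With length offsets, the difference of the fitted fold changes went from -0.38 to -0.30 for WDR18 and from 0.069 to -0.068 for MDN1. Same-numbered libraries did not deviate together (correlations of -0.028, 0.033 and -0.011), and with the replicate block PELP1 had a log2 fold change of 0.16 and 5 members were called, as without it. With 3 libraries per group, changes of NOL9 within its interval could not be told from 0, and 1 dose and 1 time were measured. The exact permutation tests could not go below p = 0.1, and groups of 3 are too small for a test of single outlying libraries.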
